A study of Mus musculus with 27 samples.

Results

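ProT cells, a mouse cell line named for the early, pro-T stage of T cell development, were sequenced 6 h after the addition of 4-hydroxytamoxifen and set against the same line at 0 h, 3 libraries at each time and 6 of the 27 libraries of the series. The comparison took every gene of the ProT count table, with the alignment summary lines removed, and asked which genes had moved in the early hours after induction. Per the labels, the cells carried a TAL1 construct switched on by tamoxifen through CreER, a Cre recombinase held inactive until it binds the drug, and LoxP sites. The 0 h cells carried the same construct and had not been treated. A further 9 libraries, 3 each at 12, 18 and 24 h, entered the same fit and give a later reference. The series also holds mouse thymus samples, which were not used here. No ProT libraries treated with tamoxifen but lacking the construct, and none given vehicle, were analysed here, so the effects of the drug, of handling and of TAL1 cannot be told apart. Nothing in the labels tells whether replicate libraries were grown as separate cultures, and all p-values measure only the spread between these libraries, which may be technical.

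TAL1 is a basic helix-loop-helix transcription factor of blood stem cells and erythroid and megakaryocytic cells that is normally shut off as thymocytes commit to the T lineage. In T cell acute lymphoblastic leukaemia it is often switched on again. It pairs with E proteins such as E2A and HEB, binds E-box sequences, and works in a complex with LMO1 or LMO2, LDB1 and GATA factors. The genes with the smallest p-values at 6 h belonged to another pathway, cholesterol synthesis. Its enzymes are driven by SREBP-2, encoded by Srebf2, a transcription factor held in the endoplasmic reticulum by INSIG proteins while sterol is plentiful and released to the nucleus when sterol falls. LXR, a nuclear receptor activated by oxysterols, acts on the opposite side and drives cholesterol export genes.

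Gene levels rested on 4820586 to 5961536 counts per library at 6 h and 2660641 to 5367020 at 0 h, with 4037467 to 6599146 at the later times. Library 1 of 6 h stood apart from its replicates. On the first principal component of log2 CPM (read counts divided by library size, which was scaled by the trimmed mean of M values), which held 31.2% of the variance, it lay at -1.07, while 6 h libraries 2 and 3 lay at -33.33 and -29.96, the 0 h libraries at -37.19 to -18.32, and the later libraries at 7.33 to 22.83. Mitochondrially encoded RNA took 10.9% of its counts, against 14.9% and 16.0% in 6 h libraries 2 and 3, 13.5% to 15.4% at 0 h and 9.71% to 12.8% later. Of 10883 genes compared over the 6 libraries of 6 h and 0 h, 5579 (51.3%) had their highest or lowest level in that library, against 21.7% to 36.5% in each of the other 5. For the comparison with 0 h, counts or medians of most of the gene lists described are therefore also given without it.

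**Figure D1:**
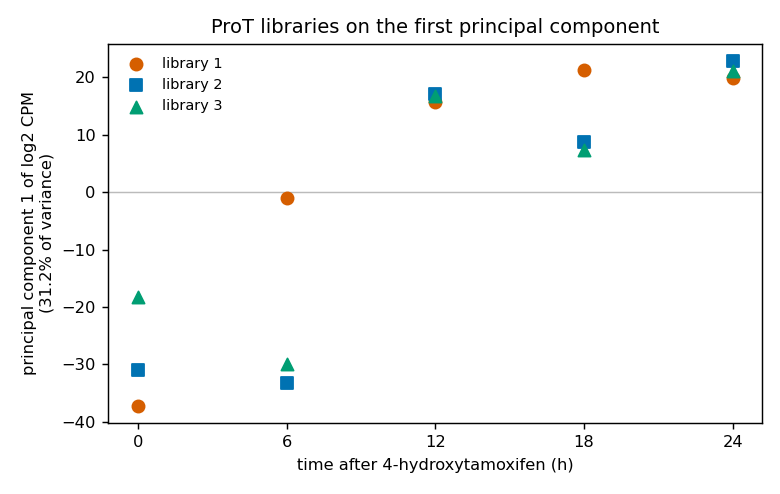
Position of each of the 15 ProT libraries on principal component 1 of log2 CPM (y axis, 31.2% of the variance) by time after 4-hydroxytamoxifen in hours (x axis), with 1 symbol per library number. At 6 h, library 1 lies at -1.07 and libraries 2 and 3 lie at -33.33 and -29.96, among the 0 h libraries.

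The labelled cell type was checked against marker genes. Of 18 pro-T markers, Il2ra (CD25), Kit, Bcl11b, Tcf7 and Lck were well detected, Ptcra and Cd2 were near 0, and the later-stage coreceptors Cd4, Cd8a and Cd8b1 had between 0 and 3 counts in each library. The summed level of the list was 1706 to 2168 CPM at 6 h and 1980 to 2090 CPM at 0 h (exact permutation test, two-sided, p = 0.9, where 3 against 3 libraries cannot go below 0.1). Transcripts of gamma-delta T and NK cells were also present, with a summed 1242 to 1450 CPM at 6 h and 1410 to 1537 CPM at 0 h, among them Trdc, the T cell receptor delta constant region, and Gzma, granzyme A. Mast cell carboxypeptidase Cpa3 averaged 272 CPM at 6 h and 257 CPM at 0 h, and the beta-globin gene Hbb-bt, which has near-identical copies, 271 CPM at 6 h and 325 CPM at 0 h. The list of megakaryocytes and mast cells summed to 284 to 331 CPM at 6 h and 275 to 302 CPM at 0 h. That of fibroblasts and stroma summed to 300 to 375 CPM at 6 h and 269 to 313 CPM at 0 h. Of its 10 members 7 were at 0 in all 6 libraries, and Vim averaged 298 CPM at 6 h and 254 CPM at 0 h. Summed levels of the remaining lists were 309 to 352 CPM at 6 h and 329 to 492 CPM at 0 h for erythroid cells, 104 to 106 CPM at 6 h and 106 to 114 CPM at 0 h for myeloid cells, 58.5 to 61.6 CPM at 6 h and 46.4 to 63.8 CPM at 0 h for dendritic cells, and 24.3 to 34.2 CPM at 6 h and 25.5 to 31.9 CPM at 0 h for B cells. Among the members detected were Spi1 (35.3 CPM at 6 h and 31.4 CPM at 0 h) and S100a8 (20.7 CPM at 6 h and 24.2 CPM at 0 h) on the myeloid list, Bst2 (19.2 CPM at 6 h and 16.99 CPM at 0 h) on the dendritic list and Ighm (19.6 CPM at 6 h and 17.8 CPM at 0 h) on the B cell list. Some defining markers of these lists were at 0 in all 6 libraries, among them Pax5 and Ms4a1 for B cells, Cd14 for myeloid cells, Cd209a for dendritic cells and Tpsab1 for mast cells. Over the 9 marker lists the same exact permutation test of the summed level gave p = 0.2 to 0.9 between 6 h and 0 h. In bulk RNA, fewer cells of a type and less RNA per cell cannot be told apart.

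Tal1 itself (GRCm38, as are all gene positions, chromosome 4, 115056426 to 115071755, plus strand) had already been among the most abundant transcripts before treatment, 22nd in rank at 0 h. It had 3033, 3608 and 3045 CPM at 6 h, against 2895, 3028 and 3098 CPM at 0 h. Only 6 h library 2 lay clear of the 0 h range, and the groups overlapped. The log2 fold change was 0.10 ± 0.12 (SE), with a 95% interval of -0.15 to 0.35 and an adjusted p of 0.941 by edgeR's quasi-likelihood test with Benjamini-Hochberg adjustment over all tested genes, as for every adjusted p below. An induced TAL1 messenger whose reads do not fall in the counted mouse gene would not be seen in this value. Tal1 was lower at the later times, averaging 2118 CPM over the 9 libraries, and the 6 h level exceeded that mean by 0.61 ± 0.10 on the log2 scale (adjusted p = 7.52e-05).

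Across the transcriptome no gene passed an adjusted p of 0.05 at 6 h: 0 of 13610 tested genes (0%) were called higher and 0 (0%) lower, with a smallest adjusted p of 0.196 for Msmo1. At an unadjusted p under 0.05 there were 734 genes (5.39%), 354 higher (2.6%) and 380 lower (2.79%). DESeq2 called 1 gene, Msmo1 (adjusted p = 0.0477), and had 554 genes at an unadjusted p under 0.05. The CPM of the 3 libraries of 6 h lay wholly above those of 0 h for 646 genes (4.75%) and wholly below for 632 (4.64%), 1278 in all (9.39%). The precision was enough to bound most changes. Of 10968 genes averaging at least 5 CPM, 10500 (95.7%) had a 95% interval for the log2 fold change that lay within -1 to 1, and 3 had an estimate beyond those limits, Cyp4f16 and the gene models Gm14150 and Gm3531. The median standard error was 0.17 on the log2 scale among those genes. By the same test the later times had 1635 genes called against 0 h at 12 h (12%), 1200 at 18 h (8.82%) and 2549 at 24 h (18.7%). Those comparisons share the 0 h libraries with the 6 h one.

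**Figure D2:**
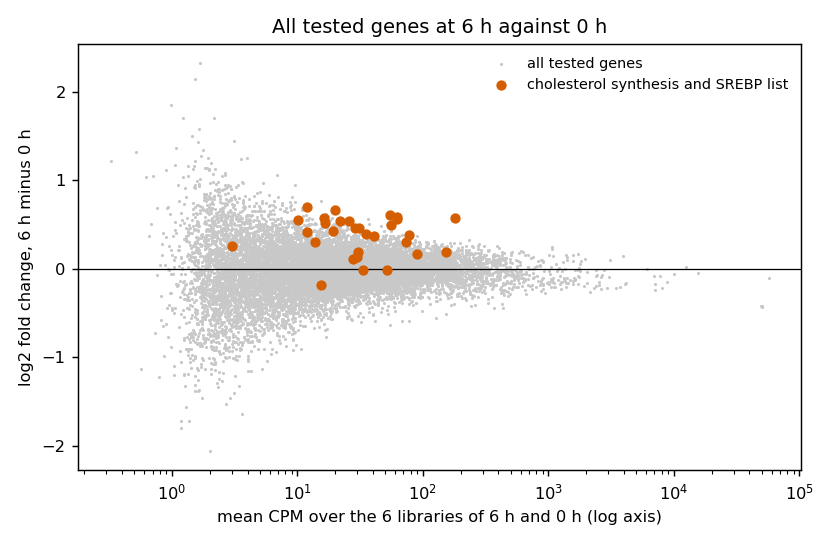
Log2 fold change, 6 h minus 0 h (y axis), against mean CPM over the 6 libraries (x axis, log scale) for the 13610 tested genes (grey) and the 30 tested members of the cholesterol synthesis list (orange). Of the 30, 27 lie above 0, while the median of all genes is 0.0011.

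The genes with the smallest p at 6 h were those of the cholesterol synthesis list, and the promoters of 4 of them are shown because the estimates of most of the list had 1 sign. They come from RefSeq on GRCm38.p6 and run 250 bases before to 50 bases after the gene's start, 5′ to 3′ on the gene's own strand. Msmo1 lies at chr8:64733529-64733828 (minus strand), Hmgcs1 at chr13:119690101-119690400 (plus), Mvd at chr8:122443373-122443672 (minus) and Srebf2 at chr15:82147019-82147318 (plus). Capitals mark CCAAT boxes, the binding sequence of NF-Y, a factor known to act beside SREBP on sterol genes (CCAAT, or ATTGG where it lies on the opposite strand), and the sterol element TCACNCCAC, each searched on both strands.
Msmo1: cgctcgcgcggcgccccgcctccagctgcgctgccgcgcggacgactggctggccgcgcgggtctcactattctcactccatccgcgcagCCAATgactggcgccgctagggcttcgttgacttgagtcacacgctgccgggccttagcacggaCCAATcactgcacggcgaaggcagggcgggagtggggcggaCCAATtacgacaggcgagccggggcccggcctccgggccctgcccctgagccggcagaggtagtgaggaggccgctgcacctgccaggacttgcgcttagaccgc
Hmgcs1: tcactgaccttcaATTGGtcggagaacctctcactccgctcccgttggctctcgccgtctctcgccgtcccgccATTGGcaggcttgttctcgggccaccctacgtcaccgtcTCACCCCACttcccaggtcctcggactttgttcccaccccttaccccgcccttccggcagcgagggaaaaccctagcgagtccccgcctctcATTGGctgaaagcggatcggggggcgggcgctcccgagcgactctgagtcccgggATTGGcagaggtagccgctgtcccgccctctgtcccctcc
Mvd: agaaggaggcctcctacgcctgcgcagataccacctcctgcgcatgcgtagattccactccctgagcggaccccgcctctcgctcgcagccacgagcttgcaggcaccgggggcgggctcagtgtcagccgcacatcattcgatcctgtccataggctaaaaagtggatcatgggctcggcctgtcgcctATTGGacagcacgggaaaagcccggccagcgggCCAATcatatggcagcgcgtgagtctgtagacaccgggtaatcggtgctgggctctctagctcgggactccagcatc
Srebf2: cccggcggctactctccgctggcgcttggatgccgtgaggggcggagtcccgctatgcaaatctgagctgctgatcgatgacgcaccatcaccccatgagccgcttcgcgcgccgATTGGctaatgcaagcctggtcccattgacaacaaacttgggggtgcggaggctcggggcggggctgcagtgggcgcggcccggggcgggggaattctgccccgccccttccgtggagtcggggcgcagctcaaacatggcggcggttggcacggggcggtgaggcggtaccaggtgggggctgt
The sterol element in this strict form was found once, in Hmgcs1, starting 137 bases before the gene's start, and in 1 of the 21 listed genes that had a promoter in the table (4.76%), against 1.44% of all 27025 genes. At least 1 CCAAT box, in any promoter the table holds for the gene, was present in 18 of the 21 (85.7%), against 41.1% of all genes. Msmo1 had 3 of them, and Hmgcs1 had 4. The E-box CAGATG, a sequence bound by TAL1 with its partners, was in 5 of the 21 (23.8%), against 19.2% of all genes, and the GATA motif AGATAA in 1 of the 21 (4.76%), against 12.7%. A match describes the letters of this window only. The shares of all genes are over every gene with a promoter here, whether or not it was tested. Those of the list describe how the list is made up, not the change at 6 h.

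Of the 32 genes on the cholesterol synthesis and SREBP list, 30 had enough counts to be tested. None of the 30 was called at an adjusted p of 0.05 (0% of all genes were). At an unadjusted p under 0.05, 18 were higher at 6 h and 0 lower, against 2.6% and 2.79% of all tested genes, and 27 of the 30 estimates were positive. In 11 of the 30 (36.7%) all 3 libraries of 6 h lay above all 3 of 0 h, against 4.75% of all genes, and in 0 did they lie below. The median log2 fold change was 0.42, with a range of -0.18 to 0.70, beside a median of 0.0011 over all tested genes. The list's median relative to the 0 h mean was 0.60, 0.25 and 0.23 in 6 h libraries 1, 2 and 3, against -0.11 to 0.07 in the 0 h libraries. Library 1 thus carried the highest level, and the other 2 lay above the 0 h range as well. Without 6 h library 1 the median was 0.25, 28 of 30 estimates were positive, 11 were higher at an unadjusted p under 0.05 (1.98% of all genes were), and 11 of 30 (36.7%) lay above 0 h in both remaining libraries, against 10.1% of all genes.

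**Figure D3:**
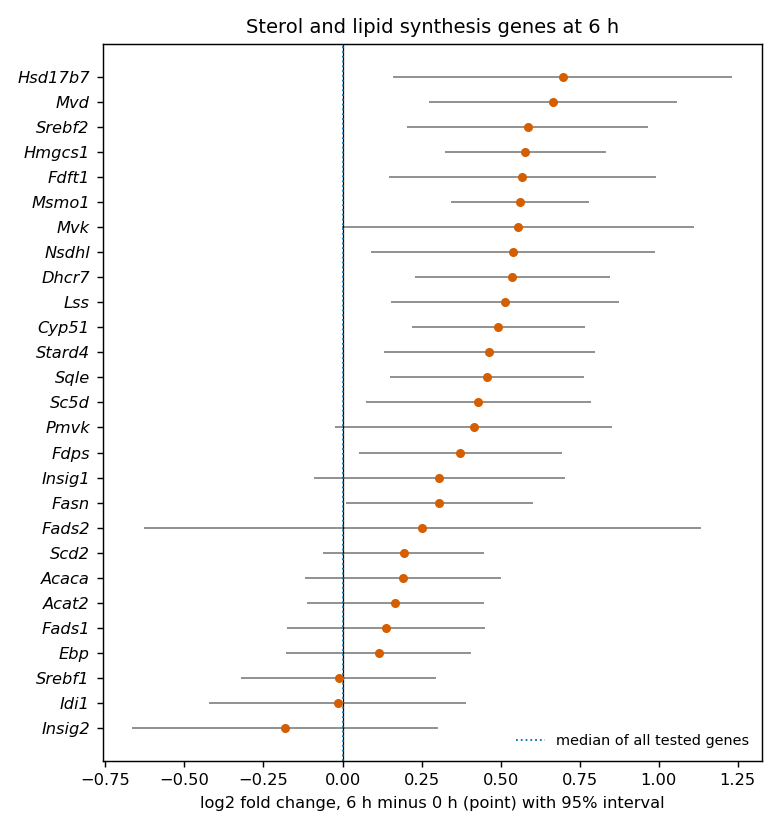
Log2 fold change, 6 h minus 0 h (points), with its 95% interval (lines), for 27 tested genes of the cholesterol synthesis and SREBP list (rows). Of the 27 points, 24 lie to the right of 0, and none of the genes passed the adjusted threshold.

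The enzymes of the pathway were taken in their order. Hmgcs1, which makes HMG-CoA, the precursor of mevalonate (chromosome 13, 119690379 to 119708260), had 261.9, 199.5 and 184.3 CPM at 6 h, against 148.5, 133.2 and 151.5 CPM at 0 h. All 3 libraries of 6 h were above those of 0 h, with library 1 highest, and the log2 fold change was 0.58 ± 0.12 (adjusted p = 0.511), or 0.41 without 6 h library 1. Mvd, which decarboxylates mevalonate diphosphate, had 29.8, 25.2 and 18.5 CPM at 6 h, against 14.6, 14.2 and 17.3 CPM at 0 h. No 6 h library fell into the 0 h range, and the log2 fold change was 0.67 ± 0.19 (adjusted p = 0.908). Other enzymes of this early stretch overlapped between the times, with log2 fold changes of 0.55 for the mevalonate kinase Mvk, 0.41 for Pmvk and 0.37 for the farnesyl diphosphate synthase Fdps. Idi1, the isopentenyl diphosphate isomerase, stood at -0.02 ± 0.20.

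Squalene formation and the steps from lanosterol to cholesterol had estimates of like size. Fdft1, squalene synthase, had a log2 fold change of 0.57 ± 0.21 with 1 of its 3 libraries of 6 h inside the 0 h range. Sqle, squalene epoxidase, had 38.2, 31.5 and 30.7 CPM at 6 h, against 25.1, 23.8 and 24.7 CPM at 0 h, without overlap (log2 fold change 0.46 ± 0.15). Lss, which closes the rings to give lanosterol, also lay wholly above (0.51 ± 0.18). Msmo1, the methylsterol monooxygenase that strips methyl groups from lanosterol derivatives (chromosome 8, 64718139 to 64733792), had 72.3, 71.3 and 79.7 CPM at 6 h, against 49.4, 50.2 and 51.4 CPM at 0 h. It had the smallest p of all tested genes, every library of 6 h was clear of every library of 0 h, and its log2 fold change was 0.56 ± 0.11 with a 95% interval of 0.34 to 0.78 (adjusted p = 0.196), or 0.58 without 6 h library 1 (adjusted p = 0.280). Dhcr7, which makes cholesterol from 7-dehydrocholesterol, had 32.1, 26.5 and 32.7 CPM at 6 h, against 24.7, 21.5 and 18.1 CPM at 0 h. It did not overlap (0.54 ± 0.15, adjusted p = 0.908), nor did Sc5d, the sterol C5 desaturase (0.43 ± 0.17). Cyp51 (0.49 ± 0.13), Nsdhl (0.54 ± 0.22) and Hsd17b7 (0.70 ± 0.26) had like estimates with overlapping libraries.

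Regulators of the pathway had estimates of either sign. Srebf2, the activator of the pathway, had 82.9, 63.4 and 75.2 CPM at 6 h, against 51.9, 46.5 and 50.03 CPM at 0 h, without overlap (0.59 ± 0.19, adjusted p = 0.908). Insig1, which retains SREBP in the endoplasmic reticulum and is itself an SREBP target, lay narrowly above 0 h in all 3 libraries (0.31 ± 0.19). Its relative Insig2 stood at -0.18 ± 0.24 and Srebf1, which mainly drives fatty acid synthesis, at -0.01 ± 0.15, and both overlapped. Fatty acid genes were nearer 0 than most of the sterol enzymes named above, with 0.31 ± 0.14 for the synthase Fasn, 0.19 ± 0.15 for the carboxylase Acaca and 0.19 ± 0.12 for the desaturase Scd2. Genes of the LXR side had estimates of the other sign, but this was not particular to 6 h. Relative to the 0 h mean, the LXR list's median was -0.20 to -0.15 over the 6 h libraries. It was negative in every later library too, from -0.47 (12 h library 2) to -0.07 (18 h library 2). The sterol list's later range was -0.12 to 0.20. For 6 h minus later the LXR median was 0.06. Against 0 h, 1 of 8 tested LXR targets had a positive estimate at 6 h and the median was -0.21. At an unadjusted p under 0.05, 2 were lower and 0 higher, against 2.79% and 2.6% of all genes. Without 6 h library 1 there was 1 lower and the median was -0.20, without 6 h library 2 there were 0 lower, 3 of 8 estimates were positive and the median was -0.16, and with libraries scaled by their totals alone 0 were lower and the median was -0.12. Abcg1, a cholesterol exporter, had 9.36, 6.07 and 6.45 CPM at 6 h, against 10.9, 9.07 and 12.8 CPM at 0 h, and overlapped through library 1 (-0.57 ± 0.24, adjusted p = 0.908). Apoe, a lipoprotein component, had 8.90, 9.45 and 9.57 CPM at 6 h, against 13.0, 16.2 and 11.7 CPM at 0 h, wholly below (-0.54 ± 0.24, adjusted p = 0.908).

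Some of the sterol genes were higher at 6 h than at the later times. Against the mean of 12, 18 and 24 h, 12 of the 30 were called higher at 6 h and 0 lower, where 9.16% and 8.27% of all tested genes were. Without 6 h library 1, 8 of the 30 were called in either direction, although calls over all genes rose from 2371 to 3434. It was 11 without library 2, 10 without library 3 and 8 with libraries scaled by their totals alone. Nsdhl was 1.01 ± 0.17 higher on the log2 scale at 6 h than later (adjusted p = 0.000136), Mvd 0.91 ± 0.14, Idi1 0.73 ± 0.16, Dhcr7 0.68 ± 0.11, Fdps 0.66 ± 0.12 and Msmo1 0.27 ± 0.08 (adjusted p = 0.0249). For all of these but Msmo1 the difference exceeded the 6 h estimate against 0 h given above, so the estimated later mean lay below 0 h. Such a call therefore does not by itself show a rise at 6 h. Sqle was not called between 6 h and later (-0.05 ± 0.11), and it was called above 0 h at 12 h (0.44, adjusted p = 0.0499), 18 h (0.61, adjusted p = 0.0111) and 24 h (0.47, adjusted p = 0.0263). Msmo1 had log2 fold changes against 0 h of 0.56 at 6 h, 0.14 at 12 h, 0.52 at 18 h (adjusted p = 0.00299) and 0.23 at 24 h, so that the 12 h estimate was the lowest of the 4. Idi1, at -0.02 at 6 h, was called lower than 0 h at 12 h (-0.66), 18 h (-0.67) and 24 h (-0.91). All 4 comparisons share the 0 h libraries.

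**Figure D4:**
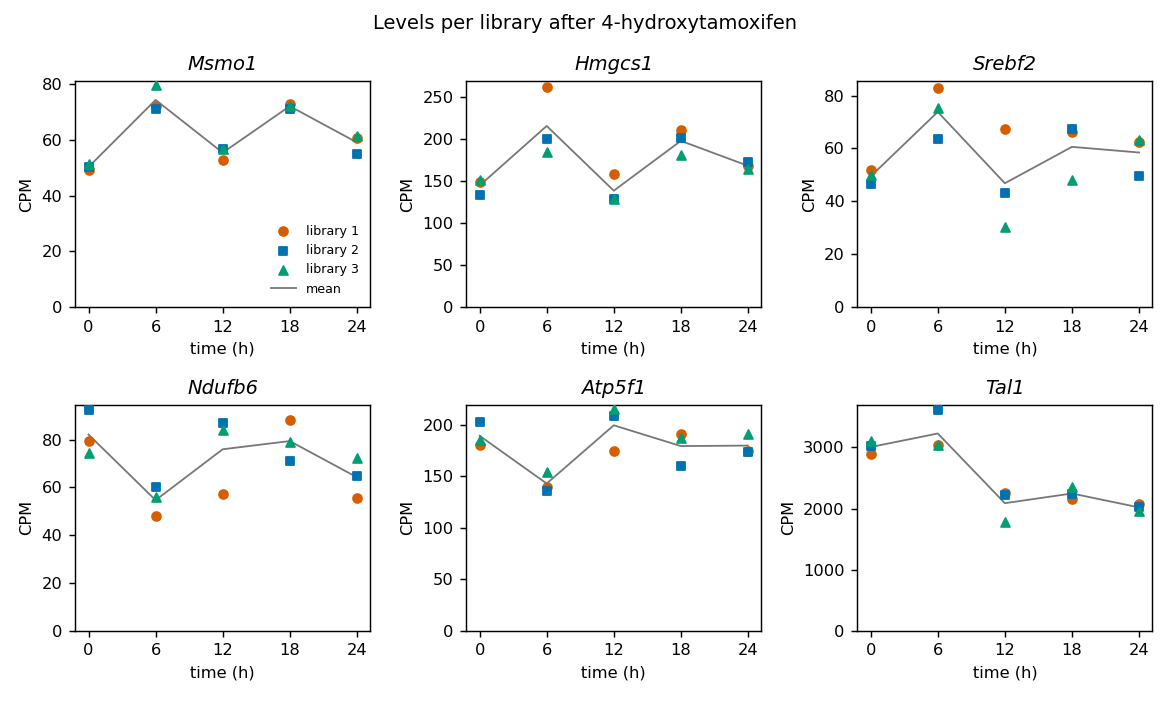
CPM of each library (symbols by library number) and the mean (line) at 0, 6, 12, 18 and 24 h after 4-hydroxytamoxifen for 6 genes, with y axes that start at 0 and differ in scale. Msmo1 has 71.3 to 79.7 CPM at 6 h and 49.4 to 51.4 CPM at 0 h, whereas Ndufb6 has 47.9 to 60.0 CPM at 6 h and 74.6 to 92.4 CPM at 0 h.

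Outside the sterol list, the genes with the smallest p among those higher at 6 h were Mtmr4 and B4galnt1. Mtmr4, a phosphoinositide phosphatase of the myotubularin family, had 25.0, 14.4 and 18.9 CPM at 6 h, against 11.7, 11.1 and 12.1 CPM at 0 h (0.76 ± 0.20, adjusted p = 0.908). B4galnt1, a ganglioside synthesis enzyme, had 53.9, 37.8 and 38.3 CPM at 6 h, against 28.9, 31.2 and 28.8 CPM at 0 h (0.56 ± 0.15, adjusted p = 0.908). In both, library 1 was the highest, and without it the log2 fold changes were 0.52 for Mtmr4 and 0.36 for B4galnt1.

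On the lower side the 5 genes with the smallest p included parts of the mitochondrial ATP machinery and of the proteasome, and none passed the threshold (adjusted p = 0.908 for each). Ndufb6, a subunit of respiratory complex I, had 47.9, 60.0 and 56.1 CPM at 6 h, against 79.5, 92.4 and 74.6 CPM at 0 h (-0.59 ± 0.15). Atp5f1, a subunit of the ATP synthase, had 139, 135 and 154 CPM at 6 h, against 180, 202 and 185 CPM at 0 h (-0.41 ± 0.11). In both genes every library of 6 h lay below every library of 0 h. Psma6, a subunit of the proteasome core, had 101, 98.7 and 94.1 CPM at 6 h, against 125, 134 and 127 CPM at 0 h (-0.40 ± 0.10). Eef1e1, a factor of the aminoacyl-tRNA synthetase complex, had 14.7, 10.1 and 12.7 CPM at 6 h, against 19.7, 24.9 and 20.1 CPM at 0 h (-0.77 ± 0.19). Cyp4f16, a cytochrome P450, had 3.84, 4.05 and 3.12 CPM at 6 h, against 7.95, 8.50 and 6.62 CPM at 0 h (-1.04 ± 0.29), the lowest level of the 5. These groups did not overlap either. The nuclear respiratory chain list as a whole was close to all genes, with 2 of 27 lower and 1 higher at an unadjusted p under 0.05, against 2.79% and 2.6% of all genes, 2 of 27 (7.41%) wholly below 0 h against 4.64% of all genes, and a median of -0.08. The list had 0 higher, 2 lower and a median of -0.09 without 6 h library 1. Counts of respiratory, proteasome and ribosomal protein genes may be split with near-identical processed pseudogenes, and the counting rule for such reads is not given in the sources used here.

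The lists tied to TAL1 were near the background at 6 h. Of 21 tested genes of the TAL1 complex and the leukaemia core circuit, 0 had an unadjusted p under 0.05 and 0 lay clear of 0 h on either side, with a median log2 fold change of 0.01. Among them, Runx1 had 0.01 ± 0.12, Myb -0.01 ± 0.10, Gata3 0.11 ± 0.13 and Lmo2, the LIM-only partner of TAL1, -0.13 ± 0.26. Of 14 TAL1 target genes 1 was higher at an unadjusted p under 0.05, and the median was -0.01. That gene was Ccr7, a chemokine receptor, with 10.4, 6.75 and 9.57 CPM at 6 h, against 5.02, 4.54 and 5.65 CPM at 0 h (0.81 ± 0.30, adjusted p = 0.908). Among 16 early thymic progenitor genes Erg, an ETS factor of blood stem cells, had 15.3, 13.3 and 12.9 CPM at 6 h, against 7.95, 8.50 and 13.0 CPM at 0 h, and overlapped through 0 h library 3 (0.44 ± 0.20, adjusted p = 0.908). Without 6 h library 1, 1 of the 21 TAL1 complex genes was lower at an unadjusted p under 0.05 (median -0.06), 1 of the 14 targets was higher (median -0.04), and 0 of the 16 progenitor genes passed that level (median 0.01), where 1.98% of all genes were higher and 2.5% lower. Erg was higher later than at 6 h, by a difference of -0.71 ± 0.14 for 6 h minus the later mean (adjusted p = 0.00103).

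The lists of T cell stage and signalling held few genes at an unadjusted p under 0.05, where 2.6% of all tested genes were higher and 2.79% lower. None of 19 lineage commitment genes reached that level, and the median was 0.00. When 6 h library 1 was left out, 3 of the 19 were lower at that level and the median was -0.06. Of 12 genes of the double-positive stage 2 were higher at an unadjusted p under 0.05, among them Cd69, an activation and retention marker, with 13.4, 13.9 and 13.1 CPM at 6 h, against 5.86, 9.07 and 9.73 CPM at 0 h (0.66 ± 0.24, adjusted p = 0.908), and without 6 h library 1 there was 1 of 12. With all libraries, 3 of the 12 (25%) lay wholly above 0 h and 2 (16.7%) wholly below, against 4.75% and 4.64% of all genes. Of 22 T cell receptor signalling genes 2 were higher at that level, with Ubash3a, a negative regulator of receptor signalling, at 0.72 ± 0.29 (adjusted p = 0.908), and without 6 h library 1 there was 1 of 22. Of 10 NOTCH1 targets 1 was lower and the median was -0.09, but the list depended on the library, with -0.46 in 6 h library 2 against 0.05 in library 1 and -0.05 in library 3. Nrarp, a feedback inhibitor of NOTCH, had 9.36, 6.07 and 9.35 CPM at 6 h, against 10.04, 14.2 and 10.9 CPM at 0 h (-0.49 ± 0.23, adjusted p = 0.908), wholly below. Without 6 h library 1 the NOTCH1 median was -0.34 and 4 of 10 were lower at an unadjusted p under 0.05 (2.5% of all genes were), none of them at the adjusted threshold. The median was 0.04 and 0 of 10 were lower when 6 h library 2 was left out.

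Most signalling, growth and stress lists gave few genes at an unadjusted p under 0.05, where 2.6% of all tested genes were higher and 2.79% lower. There were 0 of 22 immediate early genes (median 0.15), 0 of 16 NF-kB targets (0.13), 0 of 28 DNA replication genes (0.03), 1 of 28 MYC and ribosome biogenesis genes (0.07) and 0 of 30 cytosolic ribosomal protein genes (-0.10). Without 6 h library 1 the median was 0.06 for the immediate early genes, 0.22 for the NF-kB targets and -0.06 for the ribosomal protein genes, with 0 genes at that level in each. Without it the median was -0.07 for the DNA replication genes and -0.05 for the MYC and ribosome biogenesis genes, of the other sign, with 2 of 28 lower in each and 2.5% of all genes lower. Of 23 PI3K and AKT components 1 was higher, Pik3cd, the p110 delta catalytic subunit, at 0.21 ± 0.10, and without 6 h library 1 there were 0 higher and 1 lower. Wholly above 0 h lay 5 of these 23 (21.7%) and 4 of 20 FOXO targets (20%), against 4.75% of all genes. Without 6 h library 1 it was 5 of 23 (21.7%) and 5 of 20 (25%), against 10.1% of all genes. Of the FOXO targets 3 were higher (median 0.06). Of 12 glucocorticoid-responsive genes 1 was higher and 11 estimates were positive (median 0.21). That list stood at 0.40, 0.16 and 0.04 in 6 h libraries 1, 2 and 3, against -0.08 to 0.09 at 0 h. The 9 tested oestrogen-responsive genes had 0 at that level and a median of 0.09, and the 6 aryl hydrocarbon receptor targets had 0 and a median of -0.09. These medians, without 6 h library 1, were -0.01 and -0.15, again with 0 genes at that level. Of 26 mitosis genes 3 were higher, led by Plk1, the polo-like kinase, with 55.4, 43.4 and 43.0 CPM at 6 h, against 35.1, 40.2 and 36.0 CPM at 0 h (0.35 ± 0.12, adjusted p = 0.908). The median of the mitosis list was 0.13 with 6 h library 1 and 0.04 without it, when 0 of 26 genes had an unadjusted p under 0.05. The 13 mitochondrially encoded mRNAs likewise stood at -0.63 in library 1 and at 0.06 and 0.13 in 6 h libraries 2 and 3. Their median log2 fold change was -0.09 with library 1 and 0.11 without it.

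**Figure D5:**
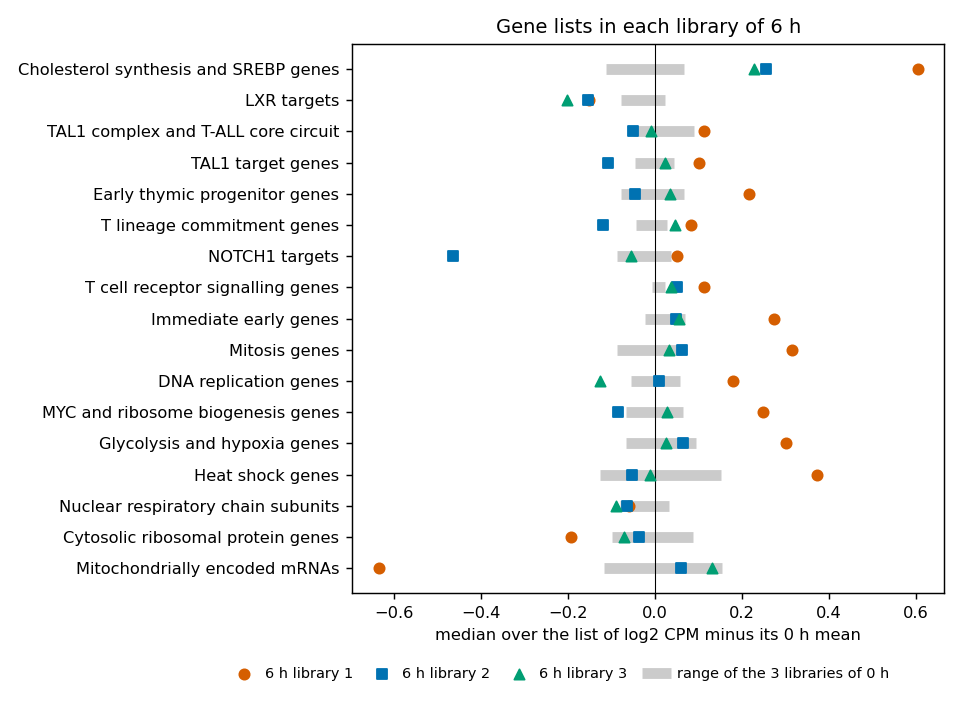
Median over each gene list (rows) of log2 CPM minus the gene's 0 h mean (x axis) in each of the 3 libraries of 6 h (symbols), beside the range of the 3 libraries of 0 h (grey bars). The sterol list lies above its 0 h range in all 3 libraries of 6 h, at 0.60, 0.25 and 0.23, while the mitochondrially encoded mRNAs lie at -0.63 in library 1 and 0.06 and 0.13 in libraries 2 and 3.

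Set against the mean of 12, 18 and 24 h, the 6 h libraries differed in many genes. Of the 13610 genes, 1246 (9.16%) were called higher at 6 h and 1125 (8.27%) lower, 2371 in all (17.4%). When libraries were scaled by their totals alone, the split was 710 higher and 1289 lower, and the median of all genes was -0.07, against 0.01 under the main scaling. The count was 3434 without 6 h library 1, 927 without library 2 and 1162 without library 3. On several lists members were called lower at 6 h than later and 0 higher, among them 17 of 26 mitosis genes, 14 of 28 DNA replication genes, 17 of 25 glycolysis and hypoxia genes and 8 of 17 unfolded protein response genes. In the other direction, 5 of 13 mitochondrially encoded mRNAs, like 12 of 30 sterol genes, were called higher at 6 h and 0 lower. Without 6 h library 1 the sterol count was 8, in either direction. Ldha, which turns pyruvate into lactate, had 136, 89.95 and 95.03 CPM at 6 h and a later mean of 193 CPM (-0.82 ± 0.12). Of 10 NOTCH1 targets 6 were lower at 6 h than later and 1 was higher. Hes1, a NOTCH-driven repressor, had 57.1, 28.8 and 53.9 CPM at 6 h and a later mean of 106 CPM (-1.17 ± 0.15). Il2ra, the interleukin-2 receptor alpha chain, had 554, 281 and 511 CPM at 6 h and a later mean of 998 CPM (-1.15 ± 0.14). Dtx1 (-1.10 ± 0.20) and Nrarp (-1.33 ± 0.18) were lower too, and Hes5 was higher (0.82 ± 0.28, adjusted p = 0.0406). Among TAL1 partners, Lmo2 was higher at 6 h than later (0.79 ± 0.21, adjusted p = 0.00929), and Lyl1, a close relative of TAL1, was lower (-0.52 ± 0.10).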

How the data were processed

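Counts per gene were deposited by the authors as raw read counts in 1 table for the ProT libraries. Per the submitters' processing notes, FastQC, HISAT2, SAMtools and HTSeq were used with mm10 (GRCm38), and tool versions, annotation, strand setting and filters are not given in the sources used here. Per the labels' protocols, RNA came from the Maxwell RSC simplyRNA kit. Of the genes in the table, 13610 passed edgeR's filterByExpr. The main test was edgeR 4.0.16's quasi-likelihood F test (R 4.3.3) with TMM scaling over all 15 ProT libraries, as 6 h minus 0 h and 6 h minus the mean of 12, 18 and 24 h, with Benjamini-Hochberg adjustment over all tested genes and a threshold of 0.05. CPM use TMM-scaled library sizes. SE is the log2 fold change divided by the root of F. Summed marker levels were compared with exact permutation tests. The scripts were tested on simulated data.

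Alternatives were DESeq2 1.42.0, its size factors, library size alone, no filter on low counts, the 6 libraries alone, a replicate block and each library left out. limma 3.58.1 voom with sample weights, and leaving out 6 h library 1 together with 0 h library 3, were added after seeing the data. Replicates differed by more than sampling noise (chi-square per gene 2.39 to 23.0, with libraries scaled by their totals alone), and all were kept as separate samples. This does not show that they were separate cultures. Depth was 2660641 to 6599146 counts.

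The members and the 46 gene lists were chosen with earlier results of these data known, and 80 genes are on more than 1 list. Genes named are Tal1, the 5 per direction with the smallest p among those averaging at least 5 CPM (gene models left out), because under 5 were called, and each described list's member with the smallest p. Some genes that these rules name are not reported here. Other members of the sterol, TAL1 and NOTCH1 lists, and the promoters shown, were chosen after their values were seen. Gene positions are from GENCODE on GRCm38 and promoters from RefSeq on GRCm38.p6.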

Additional observations from a re-analysis of the deposited data

Results flagged for a closer look

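For 20 of the named genes the level at 6 h differed from the mean of 12, 18 and 24 h (edgeR, adjusted p under 0.05). Of all tested genes 17.4% did. The values are log2 differences, 6 h minus later. Those higher at 6 h were Tal1 (0.61), the sterol genes Hmgcs1 (0.38) and Msmo1 (0.27), B4galnt1 (0.46), Cd69 (0.62), Rel (0.41), a subunit of NF-kB, Bbc3 (0.44), a BH3-only death gene, the cyclin Ccnd1 (0.68) and the glucocorticoid receptor gene Nr3c1 (0.35). Those lower at 6 h were Nrarp (-1.33), Fancb (-0.95), a Fanconi anaemia gene, Abcg1 (-0.93), Erg (-0.71), the histone gene Hist2h2aa1 (-0.48), the endoplasmic reticulum chaperone Hyou1 (-0.46), Ndufb6 (-0.42), Atp5f1 (-0.38), Uhrf1 (-0.36), which maintains DNA methylation, Psma6 (-0.34) and Plk1 (-0.27). This contrast shares the 6 h libraries with the comparison to 0 h, by whose p these genes other than Tal1 were named. Where the level at 6 h lies beyond both 0 h and the later mean, an extreme 6 h level favours a call in both. For Erg, Hist2h2aa1, Hyou1, Uhrf1 and Plk1 it lay between 0 h and the later mean. Their estimates against 0 h were 0.44, 0.37, 0.27, 0.24 and 0.35. None of the calls is independent support. Hist2h2aa1 has near-identical copies between which reads may be split.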

How the results depend on the processing

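The count of 0 genes called at 6 h held under every alternative run except DESeq2, which called 1 gene, higher (Msmo1, log2 fold change 0.56, adjusted p = 0.0477). Over the alternatives of the edgeR and limma fits the smallest adjusted p ran from 0.0531 with no filter to 0.999 without 6 h library 1 and 0 h library 3. No pairing by replicate number was seen. Same-numbered libraries of 0 h and 6 h had correlations of -0.143 to 0.0831 in their deviations. Over all times the largest was 0.213 for same-numbered and 0.238 for other-numbered libraries. With 3 libraries per time a shared culture or batch could be missed, and the labels do not say what a number shares. With a replicate block 0 genes were called at 6 h and 2448 against later times. Against later times, leaving out each 6 h library gave 927 to 3434 genes, 475 to 1780 higher and 452 to 1654 lower, and library size alone gave 710 higher. Srebf1, near 0, changed sign to 0.080 with library size alone and 0.074 with voom, and ran from -0.15 to 0.19 over the fits that left out 1 library. Idi1, also near 0, changed sign to 0.093 with library size alone and ran from -0.14 to 0.17 over those fits. Insig2 changed sign to 0.047 without 6 h library 1 and 0 h library 3. The cause of these changes was not tested. Of the other gene values 998 kept their direction and side of the threshold, and 579 list medians moved by less than the spread between replicates and 51 by more. The number of sterol genes with an unadjusted p under 0.05 ranged from 10 to 20. Depth and replicate spread limit what could be seen, with a median standard error of 0.19 over all tested genes and 0.17 among those averaging at least 5 CPM.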
